A study of Mus musculus with 20 samples.

Results

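Bacteroidales are anaerobic, Gram-negative bacteria that dominate the feces of laboratory mice, and most of their reads there belong to Muribaculaceae. The remaining families are mainly Bacteroidaceae, with Bacteroides as the main genus, Rikenellaceae, with Alistipes, and Tannerellaceae, with Parabacteroides. Bacteroides and Parabacteroides are known for the breakdown of dietary and mucus polysaccharides and the release of succinate and acetate, and Alistipes for tolerance of bile and fermentation of amino acids.

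Every entry of the order Bacteroidales with a named family other than Muribaculaceae and at least one count was taken from the count tables of families, genera and species. In total 3 of 45 family entries with a count met this rule, together with 4 of 149 genus entries and 8 of 204 species entries. A further 3 families of the order that the tables list, UBA932, Marinifilaceae and Marinilabiliaceae, had 0 counts in all samples. Bacteroidaceae held 81.1% of the reads of these families, Rikenellaceae 18.5% and Tannerellaceae 0.393%. Nearly all reads of Bacteroidaceae belonged to the genus Bacteroides_H, and all reads of Rikenellaceae and Tannerellaceae to Alistipes_A_871400 and Parabacteroides_B_862066, the suffixes being those of the Greengenes2 taxonomy. The only other genus was Prevotella, with 51 reads over 13 samples, 7 of them control and 6 FO, all assigned to the species sp004792655. Its mean share was 0.00615%, below the 0.01% that a taxon had to reach to be tested.

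The samples were feces of female adult C57BL/6 mice collected 5 days after treatment, and the bacterial 16S rRNA gene was sequenced over its V4 region. FO mice had received oxaliplatin (3.5 mg/kg) followed by 2 doses of 5-fluorouracil, each of 50 mg/kg, and control mice, per the labels, PBS or water. There were 10 samples per group, and 5 of each group came from each of the batches labelled E53B and E56A. Total counts ran from 17218 to 57415 per sample, which set the counting error (95% Wilson interval) of the Bacteroidaceae share to at most 0.388 percentage points to either side, less than the spread between samples. Control replicate 1 had the lowest share of Muribaculaceae in its group, 65.2%, and FO replicate 5 the highest in its group, 75.3%. Both were of batch E56A, and FO replicate 5 was the only FO sample above any control sample, so results that rest on them are given with and without them. Both run against the group difference in Muribaculaceae, so leaving them out tends to widen the differences in share and in the ratio to Muribaculaceae. Values and counts without either or both are given as descriptions and support no call. A share cannot tell more of a taxon from less of the others, and total bacterial load and samples from before treatment were not analysed here. Several references were therefore used for each taxon, namely all reads of the sample, the reads outside Muribaculaceae, and Muribaculaceae itself as a log2 ratio with a pseudocount of 0.5.

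Together, the 3 families made up a larger share of all reads in the FO group than in the control group, but not of the reads outside Muribaculaceae. Their summed share ran from 4.12% to 19.7% in the control group, with a median of 5.32%, and from 4.72% to 27.1% in the FO group, with a median of 11.7%. The means were 7.26% ± 4.71 (SD, n = 10) and 13.2% ± 6.37 (SD, n = 10), a ratio of 1.82. The groups overlapped, because control replicate 1 was the highest control sample and FO replicate 5 the lowest FO sample, and only FO replicate 2 exceeded every control sample. The difference of 5.97 percentage points became 8.29 without control replicate 1 and FO replicate 5. Within the order, their part of the Bacteroidales reads was 8.39% ± 5.46 (SD, n = 10) in control samples and 19.9% ± 8.62 (SD, n = 10) in FO samples. Muribaculaceae fell from a mean of 78.9% to 53.4% of all reads (permutation test, adjusted p = 0.000465) and the reads outside Bacteroidales went from 13.9% to 33.4%. Of the reads outside Muribaculaceae, the 3 families held 34.6% ± 18.3 (SD, n = 10) in control samples and 27.8% ± 11.3 (SD, n = 10) in FO samples. The medians on this scale, 24.7% and 24.8%, differed by 0.121 percentage points in the opposite direction. The difference between the means, -6.75 percentage points, was -3.36 without both samples, -2.46 without control replicate 5 and -9.79 without FO replicate 2. The log2 ratio of the sum to Muribaculaceae was higher by 1.47 in the FO group and by 1.89 without both samples. The log2 ratio to the reads outside Bacteroidales differed by -0.45, by -0.22 without both samples and by -0.18 without control replicate 5. No test was made of the sum, because its members were chosen with earlier results of these data known.

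Bacteroidaceae, the largest of the 3 families, had a higher mean share in the FO group, a difference that did not pass over all samples but did in one batch. In batch E53B the control shares were 3.30%, 3.78%, 3.85%, 4.11% and 4.24%, and the FO shares were 6.48%, 7.25%, 7.68%, 8.29% and 10.3%. The groups did not overlap in this batch. In batch E56A the control shares were 2.80%, 3.84%, 6.34%, 8.75% and 17.8%, and the FO shares were 3.30%, 12.2%, 14.1%, 15.6% and 22.1%. Here they overlapped, since control replicate 1 held the 17.8% and FO replicate 5 the 3.30%. Over both batches the mean was 5.88% ± 4.53 (SD, n = 10) in control samples and 10.7% ± 5.45 (SD, n = 10) in FO samples, and the difference of 4.85 percentage points did not pass (permutation test, two-sided, p = 0.0429, adjusted over 31 families p = 0.0649). With labels permuted only inside each batch it did pass (permutation test, adjusted p = 0.0431). With 1 sample left out it passed without control replicate 1 (6.18 percentage points, adjusted p = 0.0084) and without FO replicate 5 (5.68 percentage points, adjusted p = 0.0332). Both of these run against the group difference, so the 2 passes support no call. The other 18 runs did not pass (adjusted p = 0.0555 to 0.120). Without control replicate 1 and FO replicate 5 together the difference was 7.0 percentage points. Batch E53B alone gave a difference of 4.14 percentage points (exact permutation test, p = 0.00794, which is the lowest that 5 and 5 samples allow, adjusted p = 0.0273). Batch E56A alone gave 5.57 percentage points (exact permutation test, adjusted p = 0.324).

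Set against Muribaculaceae, which itself fell in share, Bacteroidaceae was higher in the FO group. Its log2 ratio ran from -4.85 to -1.87 in the control group, with a median of -4.29, and from -4.51 to -1.21 in the FO group, with a median of -2.52. The FO group was higher by 1.52 in log2, a 2.86-fold change (permutation test, adjusted over 30 families p = 0.00448), and 3 of 10 FO samples were higher than every control sample. The median difference over all 30 families was 1.81. Within batches the Bacteroidaceae difference was 1.62 in E53B (exact permutation test, adjusted p = 0.0125) and 1.42 in E56A (exact permutation test, adjusted p = 0.188). The log2 ratio of Bacteroidaceae to the reads outside Bacteroidales differed by -0.40 and did not pass (permutation test, p = 0.419, adjusted p = 0.591). Of the reads outside Muribaculaceae the family held 27.8% ± 17.7 (SD, n = 10) in control samples and 22.4% ± 9.70 (SD, n = 10) in FO samples, which did not pass (permutation test, adjusted p = 0.604). FO minus control, the share differed by -5.39 percentage points, and by -1.81 without control replicate 1 and FO replicate 5, -1.11 without control replicate 5 and -7.90 without FO replicate 2. The wide control spread on this scale came from batch E56A, where control replicates 1, 2 and 5 reached 51.0%, 36.2% and 66.3%, while the control samples of batch E53B lay between 16.7% and 20.3%.

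Rikenellaceae rose in share. Its share ran from 0.861% to 2.22% in the control group, with a median of 1.26%, and from 1.40% to 4.94% in the FO group, with a median of 2.36%. The means were 1.35% ± 0.415 (SD, n = 10) and 2.45% ± 1.04 (SD, n = 10), and the difference of 1.10 percentage points passed (permutation test, adjusted p = 0.00736) with 5 of 10 FO samples above every control sample. FO replicate 2 held the highest value, and FO replicate 5 the lowest of its group. Within batches the difference was 0.961 percentage points in E53B (exact permutation test, adjusted p = 0.041) and 1.24 percentage points in E56A (exact permutation test, adjusted p = 0.169). The log2 ratio to Muribaculaceae was higher by 1.39 in the FO group, a 2.63-fold change (permutation test, adjusted p = 0.0012), and 8 of 10 FO samples were higher than every control sample. Of the reads outside Muribaculaceae, Rikenellaceae held 6.59% ± 2.29 (SD, n = 10) in control samples and 5.28% ± 1.95 (SD, n = 10) in FO samples (permutation test, adjusted p = 0.495). The difference ran from -1.84 to -0.635 percentage points with 1 sample left out.

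Tannerellaceae was rare, and every one of its 373 reads was assigned to Parabacteroides_B_862066 goldsteinii, an anaerobe of the rodent and human gut. Its share ran from 0.00728% to 0.0651% in the control group, with a median of 0.0306%, and from 0 to 0.110% in the FO group, with a median of 0.0392%. The means of 0.0333% ± 0.0174 (SD, n = 10) and 0.046% ± 0.0323 (SD, n = 10) differed by less than the spread between samples (permutation test, adjusted p = 0.303). FO replicate 6, the sample with the fewest reads, had 0 counts, which allows a share of up to 0.0174% by counting error alone. The log2 ratio to Muribaculaceae was higher by 0.80 in the FO group and did not pass (permutation test, adjusted p = 0.202). With 1 sample left out it passed only without FO replicate 6, at 1.21 (adjusted p = 0.0168), and not in the other 19 runs. The ratio to the reads outside Bacteroidales was lower by 1.13 in log2 (permutation test, p = 0.0283, adjusted p = 0.165).

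**Figure D1:**
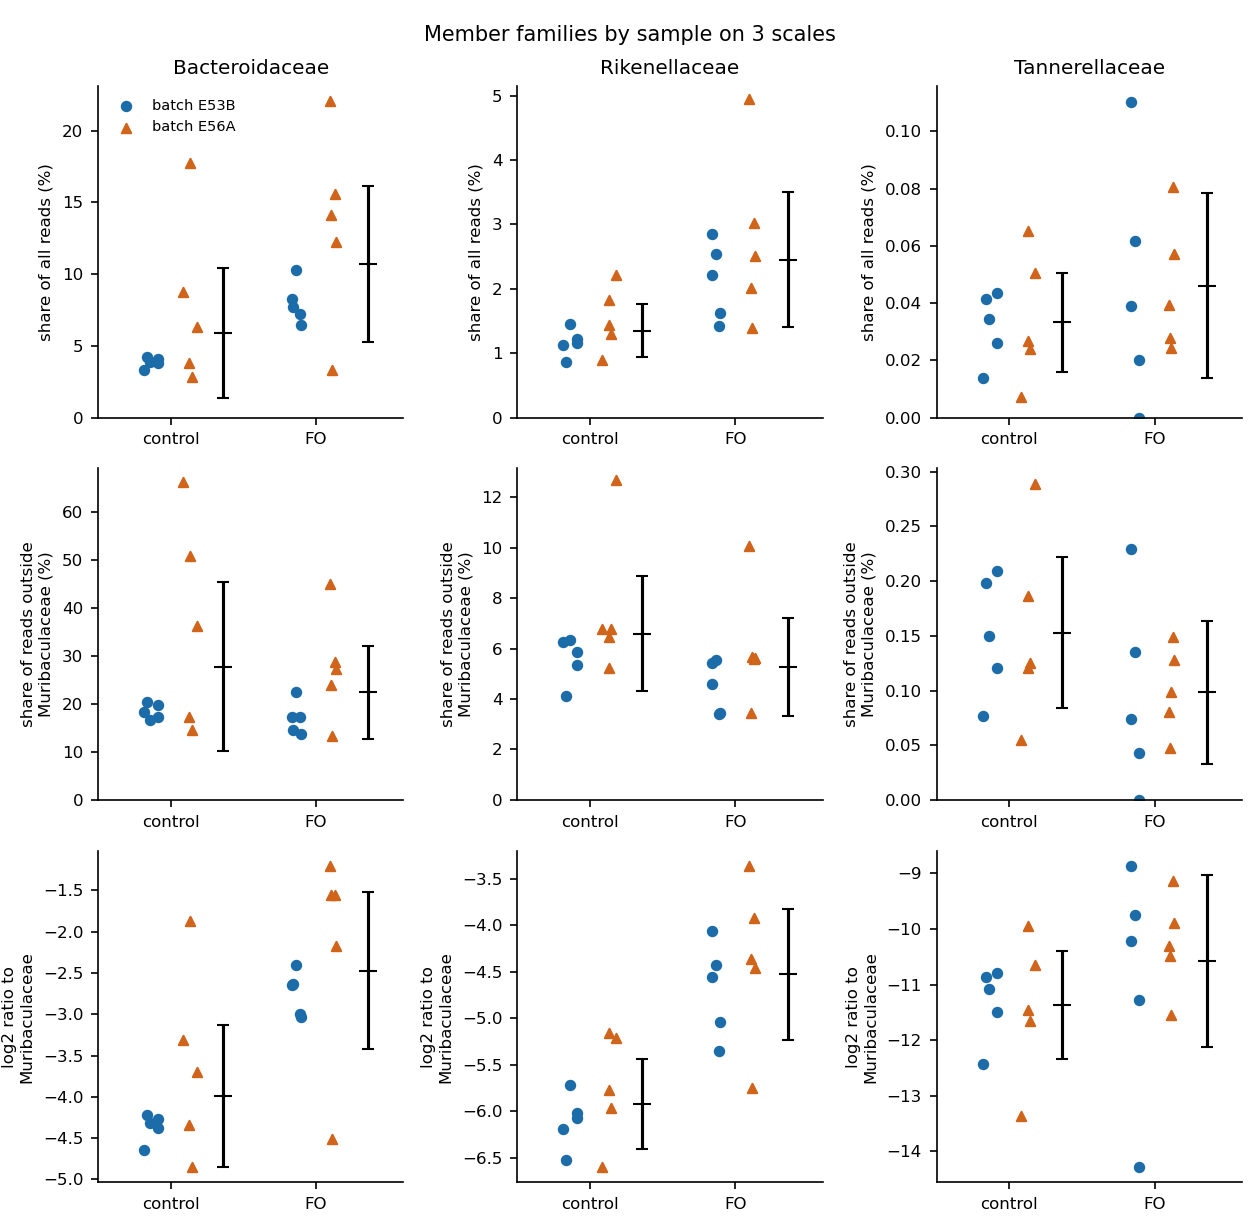
Share of all reads (top, %), share of reads outside Muribaculaceae (middle, %) and log2 ratio to Muribaculaceae (bottom) of Bacteroidaceae, Rikenellaceae and Tannerellaceae in each of the 10 control and 10 FO samples, with points marked by batch and black bars giving the group mean ± SD. The groups overlap in every panel, and the FO mean of Bacteroidaceae and Rikenellaceae lies above the control mean in the top and bottom rows and below it in the middle row.

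Counted by test, 1 of 3 families passed on the share of all reads, where 48.4% of the 31 families tested passed in either direction and 45.2% as higher. On the log2 ratio to Muribaculaceae 2 of 3 passed, against 80% of 30 families. On the share of reads outside Muribaculaceae 0 of 3 passed, against 0% of 30 families, and 0 of 3 had an unadjusted p under 0.05, also with edgeR. On the log2 ratio to the reads outside Bacteroidales 0 of 3 passed with 1 at an unadjusted p under 0.05, against 6.45% of 31 families. In batch E53B alone 2 of 3 passed on the share of all reads and on the log2 ratio to Muribaculaceae, against 48.4% and 70% of families, and in batch E56A 0 of 3 on either, against 0% and 16.7%. With 3 families these counts were near the shares of all families tested, and nothing particular to the 3 is read from them.

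Bacteroides_H rodentium, a polysaccharide-degrading species of the rodent gut, was the most abundant of the species entries. Its share ran from 1.14% to 11.6% in the control group, with a median of 2.39%, and from 2.16% to 12.9% in the FO group, with a median of 4.80%. The means were 3.77% ± 3.31 (SD, n = 10) and 5.87% ± 3.56 (SD, n = 10). Control replicate 1 held the highest control share, and FO replicate 2 alone lay above it. The difference of 2.10 percentage points did not pass (permutation test, adjusted over 104 species entries p = 0.263), and without control replicate 1 and FO replicate 5 it was 3.35 percentage points. With 1 sample left out it ran from 1.32 percentage points, without FO replicate 2, to 2.97, without control replicate 1, and passed in 0 of 20 cases. Batch E53B alone gave 1.84 percentage points (exact permutation test, adjusted p = 0.059) and batch E56A alone 2.36 percentage points (exact permutation test, adjusted p = 0.538). The log2 ratio of the species to Muribaculaceae was higher by 1.36 in the FO group (permutation test, adjusted over 91 entries p = 0.0238), with 2 of 10 FO samples above every control sample.

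Bacteroides_H acidifaciens, a species first isolated from the mouse cecum, rose in share. Its share ran from 0.56% to 4.30% in the control group, with a median of 1.08%, and from 0.577% to 6.32% in the FO group, with a median of 3.03%. The means were 1.40% ± 1.07 (SD, n = 10) and 3.35% ± 1.75 (SD, n = 10), a ratio of 2.39 (permutation test, adjusted p = 0.0227). In batch E53B all 5 FO samples exceeded all 5 control samples, and the difference was 1.45 percentage points (exact permutation test, adjusted p = 0.0285). In batch E56A control replicate 1, at 4.30%, lay above FO replicate 4, at 2.52%, and FO replicate 5 held the lowest FO share. The difference there was 2.44 percentage points (exact permutation test, adjusted p = 0.268). The log2 ratio of the species to Muribaculaceae was higher by 1.84 in the FO group, a 3.57-fold change (permutation test, adjusted p = 0.0049).

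Bacteroides_H reads with no species assigned rose in share of all reads, with a mean of 0.682% ± 0.399 (SD, n = 10) in control samples and 1.48% ± 0.793 (SD, n = 10) in FO samples (permutation test, adjusted p = 0.0311). The control shares ran from 0.263% to 1.71% and the FO shares from 0.211% to 2.75%, so FO replicate 5 lay below every control sample. The call was lost when control replicate 2, 3, 4 or 5 or FO replicate 3 or 7 was left out, with adjusted p between 0.0505 and 0.0597. Against Muribaculaceae these reads rose by 1.59 in log2 (permutation test, adjusted p = 0.00988). In batch E53B all FO samples exceeded all control samples in share (exact permutation test, adjusted p = 0.0285), and in batch E56A 2 of 5 did (exact permutation test, adjusted p = 0.42). Which species they belong to cannot be told from the tables.

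Bacteroides_H caecimuris, named for the mouse cecum, was counted in 5 of 10 control and 9 of 10 FO samples. Of its 56 control reads, 42 came from control replicate 1, and the other control samples held 0 to 8. FO samples held 0 to 44 reads, the most in FO replicate 2. A count of 0 allows a share of up to 0.00546% to 0.00815% in the 5 control samples without a read and of up to 0.0174% in FO replicate 6. The mean share was 0.012% ± 0.0292 (SD, n = 10) in control samples and 0.0252% ± 0.0272 (SD, n = 10) in FO samples and did not pass (permutation test, adjusted p = 0.378). With 1 sample left out it passed in 1 of 20 runs, without control replicate 1, with a difference of 0.0223 percentage points (adjusted p = 0.0345). Its log2 ratio to Muribaculaceae was higher by 2.75 in the FO group with a pseudocount of 0.5 (permutation test, adjusted p = 0.0172) and by 2.35 with a pseudocount of 1 (adjusted p = 0.0144), so the size depends on the pseudocount.

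Alistipes_A_871400 sp002362235, a species known by a placeholder name, held most of the Rikenellaceae reads. Its share ran from 0.715% to 2.01% in the control group, with a median of 1.12%, and from 1.14% to 3.84% in the FO group, with a median of 1.79%. The means of 1.17% ± 0.377 (SD, n = 10) and 2.0% ± 0.831 (SD, n = 10) differed by 0.827 percentage points, which passed (permutation test, adjusted p = 0.0186). FO replicate 2 was the highest sample and control replicate 5 the lowest, and 4 of 10 FO samples exceeded all control samples. Batch E53B alone gave 0.637 percentage points (exact permutation test, adjusted p = 0.0446) and batch E56A alone 1.02 percentage points (exact permutation test, adjusted p = 0.268). Against Muribaculaceae it rose by 1.31 in log2 (permutation test, adjusted p = 0.00174), and 8 of 10 FO samples were higher than every control sample.

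Alistipes_A_871400 finegoldii, a bile-tolerant species first described in humans, rose in share. Its share ran from 0.0997% to 0.321% in the control group, with a median of 0.173%, and from 0.185% to 1.10% in the FO group, with a median of 0.368%. The means were 0.179% ± 0.0673 (SD, n = 10) and 0.453% ± 0.285 (SD, n = 10), a ratio of 2.54 (permutation test, adjusted p = 0.00773). In batch E53B all FO samples exceeded all control samples and the ratio was 3.42 (exact permutation test, adjusted p = 0.0285). In batch E56A 2 of 5 FO samples did, and the ratio was 2.0 (exact permutation test, adjusted p = 0.352). Against Muribaculaceae it rose by 1.79 in log2 (permutation test, adjusted p = 0.000341), with 7 of 10 FO samples above every control sample.

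**Figure D2:**
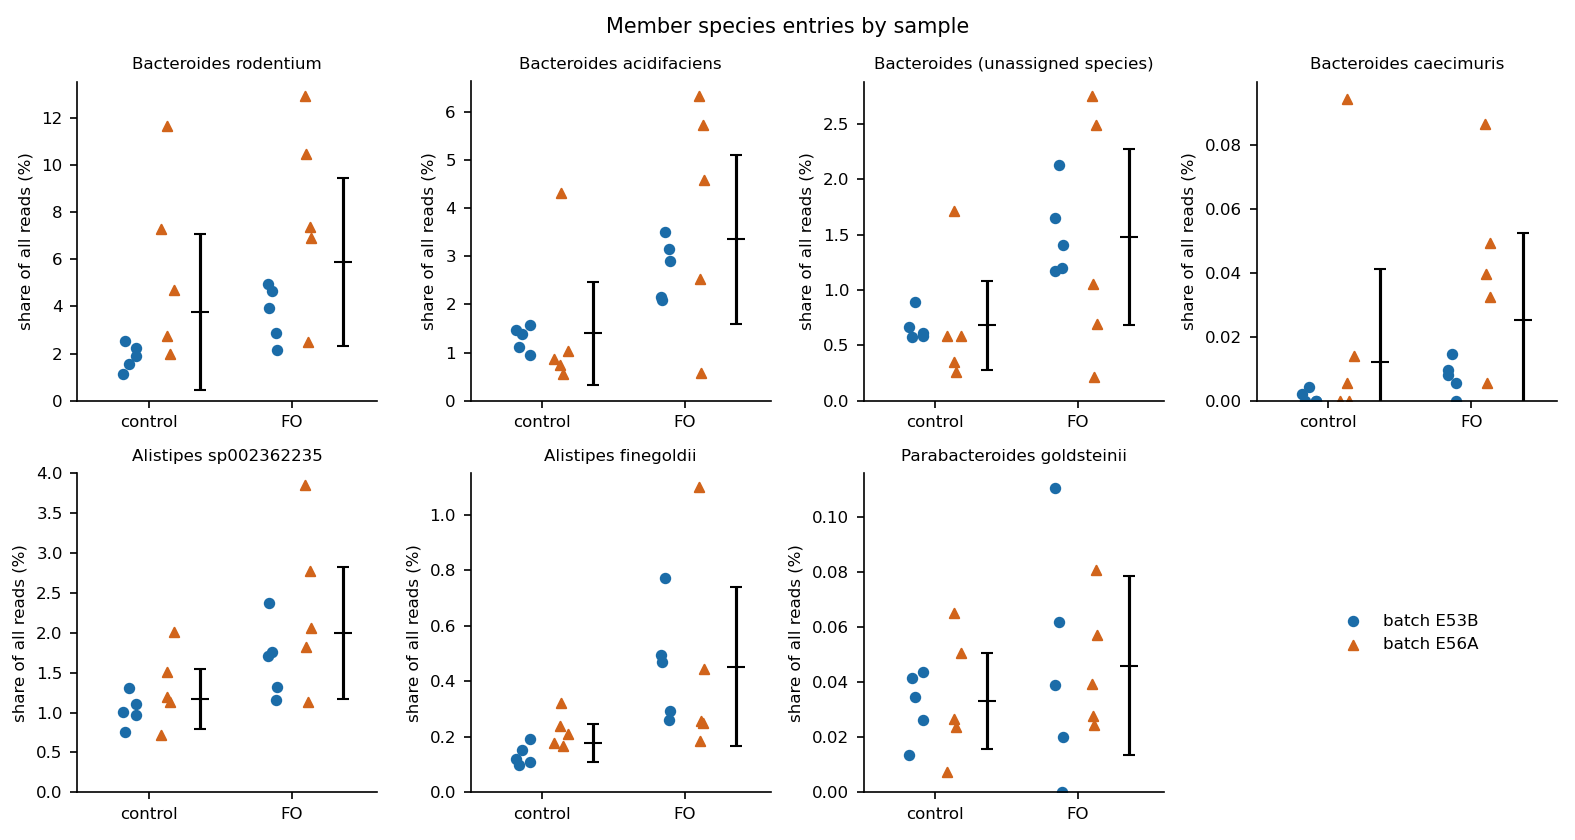
Share of all reads (%) of the 7 species entries with a mean share of at least 0.01% in each control and FO sample, with points marked by batch, black bars giving the group mean ± SD (cut off at 0) and genus suffixes left out of the titles. The single high control point of Bacteroides acidifaciens, of the unassigned Bacteroides reads and of Bacteroides caecimuris is control replicate 1 in each case.

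Of the 7 species entries tested, 4 passed on the share of all reads, all higher, where 32.7% of 104 entries passed as higher and 39.4% in either direction. On the log2 ratio to Muribaculaceae 6 of 7 passed, all higher, against 56% of 91 entries as higher and 57.1% in either direction. On the share of reads outside Muribaculaceae 0 of 7 passed, against 0% of 91 entries, with 0 of 7 at an unadjusted p under 0.05. On that scale the means differed by between -6.02 percentage points for Bacteroides_H rodentium and 0.737 percentage points for Bacteroides_H acidifaciens. With 1 sample left out these differences ran from -7.58 to -1.92 for rodentium and from 0.0859 to 1.41 for acidifaciens. On the log2 ratio to the reads outside Bacteroidales 0 of 7 passed, against 13.5% of 104 entries, with Parabacteroides_B_862066 goldsteinii at an unadjusted p of 0.0283 (permutation test). With 1 sample left out, Alistipes_A_871400 sp002362235 passed as lower on this scale in 1 of 20 runs, without FO replicate 2, by -0.79 in log2 (adjusted p = 0.0366). Within batch E53B, 4 of 7 passed on the share of all reads and 6 of 7 on the log2 ratio to Muribaculaceae, against 35.6% and 51.6% of entries. Within batch E56A 0 of 7 passed on either scale, against 0% of entries on each. With 5 against 5 samples, a share or ratio that separates the groups completely reaches an unadjusted p of 0.00794.

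The counts were also fitted with edgeR, with batch as a term, under scalings that set each taxon against another reference. With TMM scaling, which takes the bulk of the taxa as unchanged, 0 of 3 families were called, with 0 at an unadjusted p under 0.05, and 4% of 25 families were. DESeq2 also called 0 of 3, against 8% of families. The log2 changes were -0.46 ± 0.32 for Bacteroidaceae (SE, edgeR, adjusted p = 0.443), -0.41 ± 0.21 for Rikenellaceae (SE, adjusted p = 0.287) and -0.69 ± 0.43 for Tannerellaceae (SE, adjusted p = 0.418). The median over the 3 families was -0.46 and that over all families tested -0.30. In the genus table the same scaling gave 0.14 ± 0.32 for Bacteroides_H (SE, adjusted p = 0.826) and 0.12 ± 0.24 for Alistipes_A_871400 (SE, adjusted p = 0.81), although they held the same reads as their families but for the 51 of Prevotella. The sign of these small changes thus turned with the rank of the table that was scaled.

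Scaled to all reads, edgeR called 2 of 3 families as higher, against 52% of families as higher and 56% in either direction, with log2 changes of 0.91 ± 0.28 for Bacteroidaceae (SE, adjusted p = 0.00796) and 0.86 ± 0.25 for Rikenellaceae (SE, adjusted p = 0.00501). The median was 0.86 over the 3 families and 1.03 over all families tested. Scaled to Muribaculaceae, it called 2 of 3, against 83.3% of families, with 1.5 ± 0.34 for Bacteroidaceae (SE, adjusted p = 0.000458) and 1.47 ± 0.30 for Rikenellaceae (SE, adjusted p = 0.000213). Scaled to the reads outside Muribaculaceae, it called 0 of 3, against 0% of families, and the changes were -0.27 ± 0.24 for Bacteroidaceae and -0.32 ± 0.22 for Rikenellaceae (SE). The genera gave the same counts, with 0 of 3 called by TMM and 2 of 3 when scaled to all reads or to Muribaculaceae, against 22%, 49.2% (42.4% as higher) and 72.5% of genera, and DESeq2 called 0 of 3, against 27.1%.

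Among species entries, 6 of 8 passed the filter on low counts of edgeR, which left out Bacteroides_H caecimuris and the Prevotella entry. With TMM scaling 0 of 6 were called, with 0 at an unadjusted p under 0.05, against 23.9% of 71 entries, and DESeq2 also called 0 of 6, against 31%. Their log2 changes lay between -0.13 ± 0.51 for Parabacteroides_B_862066 goldsteinii (SE, adjusted p = 0.909) and 0.75 ± 0.38 for Alistipes_A_871400 finegoldii (SE, adjusted p = 0.164). With 1 sample left out goldsteinii ran from -0.455 to -0.0133 and finegoldii from 0.306 to 0.809. Without control replicate 1 and FO replicate 5, 1 of 6 was called, against 25% of 72 entries, namely Bacteroides_H acidifaciens, at 0.91 ± 0.31 (SE). Scaled to all reads or to Muribaculaceae, 5 of 6 were called, all higher, against 49.3% (40.8% as higher) and 75.9% of entries, the exception in both being Parabacteroides_B_862066 goldsteinii. Bacteroides_H rodentium only just passed when scaled to all reads, at 0.74 ± 0.31 (SE, adjusted p = 0.0497).

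**Figure D3:**
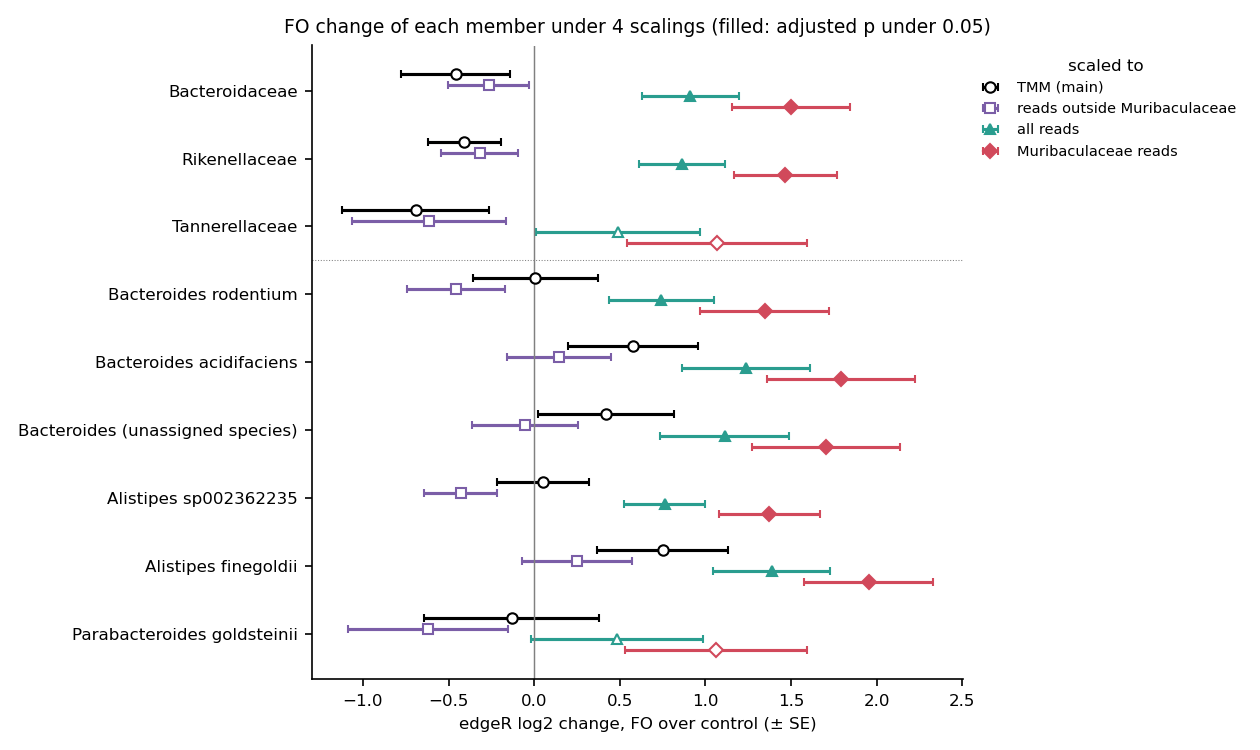
edgeR log2 change of FO over control (points ± SE) for the 3 families (above the dotted line) and the 6 species entries tested, under 4 scalings, with filled points for an adjusted p under 0.05 and genus suffixes left out. No point is filled with TMM scaling or when scaled to the reads outside Muribaculaceae, while 2 families and 5 species entries are filled when scaled to all reads or to Muribaculaceae.

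The proportions of the families to each other were compared without reference to any other taxon. Bacteroidaceae made up 77.7% ± 7.73 (SD, n = 10) of the reads of the 3 families in control samples and 79.9% ± 5.24 (SD, n = 10) in FO samples. The log2 ratio of Bacteroidaceae to Rikenellaceae was 1.93 ± 0.776 (SD, n = 10) and 2.06 ± 0.459 (SD, n = 10) and differed by 0.13 (permutation test, p = 0.662, adjusted over 7 ratios p = 0.662). In total 7 such ratios between members were compared, each also within batches and between batches, with p adjusted over the 7 ratios in each of these comparisons. They were the pairs of families, of Bacteroides_H entries and of Alistipes_A_871400 entries counted in at least 19 samples. These ratios were chosen after the values were seen, which the adjustment does not cover. For FO against control over both batches none of them had an unadjusted p under 0.05, the lowest being 0.0847 for the pair of Alistipes_A_871400 species (permutation test, adjusted p = 0.418).

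In batch E53B the ratio of that pair had an unadjusted p under 0.05 for FO against control but did not pass after adjustment. The only other ratio with an unadjusted p under 0.05 for FO against control within a batch was that of Bacteroides_H acidifaciens to the unassigned Bacteroides_H reads in E56A, higher by 0.58 (exact permutation test, p = 0.0397, adjusted p = 0.278). In batch E53B Alistipes_A_871400 finegoldii made up 11.6% ± 2.91 (SD, n = 5) of the reads of its genus in the control samples and 21.2% ± 5.61 (SD, n = 5) in the FO samples, and 4 of 5 FO samples exceeded every control sample. The log2 ratio of sp002362235 to finegoldii was lower by 1.03 in the FO samples of E53B (exact permutation test, p = 0.0159, adjusted p = 0.111). In batch E56A finegoldii made up 15.3% ± 4.16 (SD, n = 5) and 15.2% ± 6.12 (SD, n = 5), and the log2 ratio differed by 0.07 (exact permutation test, p = 0.841, adjusted p = 0.944). Whether the 2 batches differed in this change was not tested on the ratio. On the counts, the edgeR interaction of FO and batch called 0 of 3 families, 0 of 3 genera and 0 of 6 species entries, against 0% of taxa at each rank, with 0 of these members at an unadjusted p under 0.05. DESeq2 also called 0 of these members, against 0% of families, 1.69% of genera and 2.82% of species entries. The edgeR interaction was -0.97 ± 0.74 in log2 for finegoldii (SE, adjusted p = 0.792).

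The make-up of Bacteroides_H in the control samples differed between the batches. In the control samples of batch E53B, Bacteroides_H rodentium held 34.8% to 60.1% of the reads of its genus, with a mean of 48.2% ± 11.2 (SD, n = 5). In those of batch E56A it held 65.6% to 83.3%, with a mean of 73.0% ± 6.52 (SD, n = 5), and the batches did not overlap. Bacteroides_H acidifaciens went the other way, with 34.2% ± 8.32 (SD, n = 5) in E53B and 18.0% ± 5.25 (SD, n = 5) in E56A. The log2 ratio of rodentium to acidifaciens was higher by 1.58 in the E56A control samples, and that of rodentium to the unassigned reads by 1.6 (exact permutation test, p = 0.00794 and adjusted p = 0.0278 for each). The 2 ratios share rodentium as their numerator and are not separate evidence. In the FO samples the same differences were 0.83 (exact permutation test, p = 0.127, adjusted p = 0.296) and 1.53 (exact permutation test, p = 0.0159, adjusted p = 0.111), and neither passed. The 1.53 was near the 1.6 of the control samples, and whether the batch difference itself differed between control and FO samples was not tested. The ratio of acidifaciens to the unassigned reads differed by 0.02 between the batches in control samples (exact permutation test, p = 0.897, adjusted p = 0.897) and by 0.69 in FO samples (exact permutation test, p = 0.0397, adjusted p = 0.139). FO minus control, the ratio of rodentium to acidifaciens differed by -0.10 in E53B (exact permutation test, p = 0.802, adjusted p = 0.802) and by -0.84 in E56A (exact permutation test, p = 0.111, adjusted p = 0.389).

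**Figure D4:**
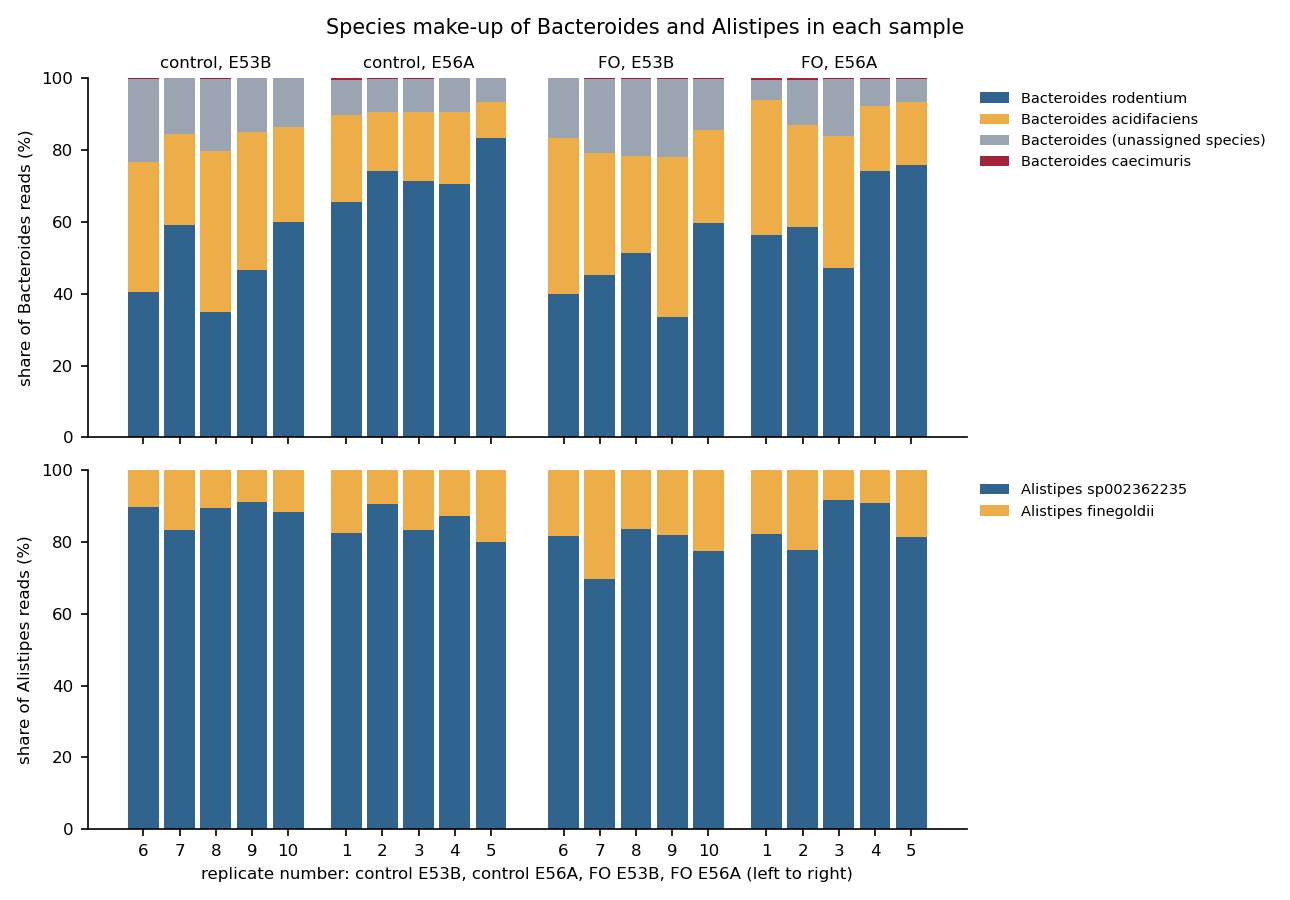
Share of the reads of Bacteroides_H (top, %) and Alistipes_A_871400 (bottom, %) held by each species entry in every sample, with bars in order of group, batch and replicate number and genus suffixes left out. Bacteroides rodentium holds at least 65.6% of its genus in the control samples of batch E56A and at most 60.1% in those of batch E53B.

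With treatment in the model and TMM scaling, edgeR called 0 of 3 families between the batches, against 8% of 25 families, with Bacteroidaceae at 0.94 ± 0.32 (SE, adjusted p = 0.0567) as the only one at an unadjusted p under 0.05. DESeq2 called 2 of 3, against 28% of families. Scaled to all reads, edgeR called Bacteroidaceae, higher in E56A by 0.89 ± 0.28 (SE, adjusted p = 0.0339), against 16% of families. With TMM scaling edgeR called 2 of 3 genera between the batches, against 11.9% of 59 genera, both higher in E56A. Bacteroides_H differed by 1.32 ± 0.32 in log2 (SE, adjusted p = 0.0138) and Alistipes_A_871400 by 0.81 ± 0.24 (SE, adjusted p = 0.0286). These calls were unstable, with 1 of 3 from DESeq2 (18.6% of genera) and 0 of 3 when scaled to all reads (1.69% of genera), and leaving out any one of control replicates 1, 2, 5, 6, 7, 8, 9 and 10 removed both. Leaving out control replicate 3 or 4 or FO replicate 2, 5, 6, 8 or 9 removed 1 of them. Among species entries 2 of 6 were called, against 11.3% of 71 entries, and DESeq2 called 2 of 6, against 16.9%. Bacteroides_H rodentium was higher in E56A by 1.81 ± 0.38 (SE, adjusted p = 0.00325), and by 1.35 ± 0.31 when scaled to all reads (SE, adjusted p = 0.00908) and by 1.62 ± 0.36 with DESeq2 (SE, adjusted p = 0.000289), while 2.82% of entries were called when scaled to all reads. Alistipes_A_871400 sp002362235 was higher by 0.86 ± 0.27 (SE, adjusted p = 0.037), but by 0.41 ± 0.23 when scaled to all reads (SE, adjusted p = 0.341). In the control samples alone rodentium differed by 2.01 ± 0.49 (SE, edgeR, adjusted p = 0.042), 1 of 6 entries called against 3.17% of entries, and in the FO samples alone by 1.49 ± 0.47 (SE, edgeR, adjusted p = 0.117), 0 of 6 called against 4.88% of entries. The labels name the batches without saying what separates them, so mice, cages, dates and sequencing cannot be told apart.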

How the data were processed

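Bacterial DNA from mouse feces was amplified over the V4 region and read as paired ends (MiSeq). According to the methods of the study, the authors trimmed reads with cutadapt, merged and quality filtered them, removed chimeras, grouped them into operational taxonomic units and assigned taxa against Greengenes2 in QIIME2. The deposited values are whole-number read counts per taxon without normalization, and the family, genus and species tables were used. An amplified read is not an independent molecule and 16S gene copy number was not corrected for, so intervals and limits of 0 counts (3 counts) cover counting error only. Samples were matched to groups and batches by their labels. Nothing in these labels states cages or litters, so p-values measure the spread between samples.

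The members and lists were chosen with earlier results of these data known. The named taxa were every family with a count and every genus and species entry with a mean share of at least 0.01%. Shares and log2 ratios (pseudocount 0.5) were tested for all taxa with that mean share by two-sided permutation of group means with 100000 resamples, or exactly within a batch. The p-values were adjusted by the Benjamini-Hochberg method over all taxa of a rank and scale at 5%, and those of the 7 ratios between members over these ratios within each comparison. A log2 ratio to the reads outside Bacteroidales leaves the taxon's own reads out of the denominator. Counts were fitted by quasi-likelihood in edgeR 4.0.16 (TMM, filterByExpr, batch as a term). The SE given with an edgeR change was not taken from the fit. It was the absolute log2 change divided by the square root of its F statistic. DESeq2 1.42.0, limma 3.58.1 on centred log ratios, other scalings and filters, single batches and leaving out each sample in turn were alternatives. Leaving out control replicate 1 and FO replicate 5 together, the ratio to the reads outside Bacteroidales, the ratios between members, the batch fits within a group and the alternatives for species entries on shares and ratios were added after the data were seen. The fits and permutation tests were run on simulated data. The simulated counts held rises and falls of equal size in randomly drawn taxa. They were not modelled on a fall of the most abundant family, so they do not check the fits for such a change. All 90 pairs of samples of a group differed by more than counting noise, with a chi-square of at least 4.15 per degree of freedom. Python 3.11.15 and R 4.3.3 were used.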

Additional observations from a re-analysis of the deposited data

Results flagged for a closer look

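The share of all reads of each family and each species entry was checked within both groups for a sample far from the rest, and 5 of the 20 groups of 10 samples had one. Chance flags about 1 in 20 groups, so about 1 here, and the shares are skewed and several hold the same reads. In control replicate 1 the Bacteroidaceae share was 17.8%, against 4.56% ± 1.85 (SD) in the other 9 control samples. The same sample had the highest share of its group for Bacteroides_H acidifaciens, at 4.30% (1.08% ± 0.344 in the others), for the unassigned Bacteroides_H reads, at 1.71% (0.567% ± 0.179), and for Bacteroides_H caecimuris, at 0.0943% (0.00292% ± 0.00467). FO replicate 2 had a Rikenellaceae share of 4.94%, against 2.17% ± 0.603 in the other 9 FO samples. Both samples belong to batch E56A.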

How the results depend on the processing

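No paired analysis was possible because replicate numbers here only follow the order of accessions. The reference decided most results. The members called by edgeR went from 0 of 3 families, 0 of 3 genera and 0 of 6 species entries with TMM scaling to 2, 2 and 5 when scaled to all reads and to 2, 2 and 5 when scaled to Muribaculaceae. Without control replicate 1 and FO replicate 5, chosen for running against the group difference in Muribaculaceae, they were 0, 0 and 1 with TMM (over all taxa 1 of 25 families, 10 of 61 genera and 18 of 72 species entries), 2, 2 and 5 scaled to all reads (18, 34 and 44), and 3, 3 and 6 scaled to Muribaculaceae, where 24 of 24 families, 40 of 53 genera and 46 of 59 species entries were called. Under these settings the TMM sign turned. Bacteroidaceae went to 0.91 (all reads), 1.5 (Muribaculaceae), 1.28 and 1.95 (the same without both samples), Rikenellaceae to 0.86, 1.47, 0.97 and 1.63, Tannerellaceae to 0.49, 1.06, 0.73 and 1.39, and Parabacteroides_B_862066 goldsteinii to 0.48, 1.06, 0.72 and 1.38. With TMM, Bacteroidaceae ranged from -0.58 to 0.0758 when 1 sample was left out, the latter without control replicate 5. Rikenellaceae ranged from -0.537 to -0.0619 and Tannerellaceae from -0.950 to -0.376. Bacteroides_H rodentium, at 0.01 with TMM, went to -0.0629 (RLE), -0.46 (outside Muribaculaceae), -0.0939 (DESeq2), -0.23 (no batch term), -0.0141 (batch E53B) and -0.18 (batch E56A), and ranged from -0.25 to 0.17 with 1 sample left out. Alistipes_A_871400 sp002362235, at 0.05, went to -0.43 (outside Muribaculaceae), -0.00499 (DESeq2), -0.0120 (centred log ratio) and -0.27 (batch E53B), and from -0.20 to 0.12 with 1 sample left out, and the unassigned Bacteroides_H reads went to -0.0515 outside Muribaculaceae. None of these values with TMM, RLE, DESeq2 or centred log ratios passed.

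The summed share of all reads and log2 ratio to Muribaculaceae stayed higher with FO under every alternative run, at 4.43 to 7.35 percentage points and 1.34 to 1.68 with 1 sample left out. With 1 sample left out, the sum on the reads outside Muribaculaceae ranged from -9.79 to -2.46 percentage points, its log2 ratio to the reads outside Bacteroidales from -0.64 to -0.18, and Bacteroidaceae on the reads outside Muribaculaceae from -7.90 to -1.11 percentage points. Medians turned the sum on the reads outside Muribaculaceae (0.121 percentage points) and outside Bacteroidales (log2 0.00121), and Bacteroidaceae alone (0.881 percentage points and log2 0.0497). Also turned on the share of reads outside Muribaculaceae were Bacteroides_H acidifaciens in batch E53B (-0.351 percentage points), the unassigned Bacteroides_H reads in E53B (0.0292) and without both samples (0.332), and Alistipes_A_871400 finegoldii in E56A (-0.0743). With 1 sample left out, the sign on this scale also turned for the unassigned Bacteroides_H reads (-0.390 to 0.138, higher without control replicate 1 or 5 or FO replicate 1, 4 or 5), finegoldii (-0.00918 to 0.205, lower without FO replicate 2) and Bacteroides_H caecimuris (-0.00286 to 0.0365, lower without FO replicate 2). On the log2 ratio to the reads outside Bacteroidales it turned for acidifaciens (-0.28 to 0.0928, higher without control replicate 1 or 5 or FO replicate 5 or 8) and finegoldii (-0.36 to 0.0790, higher without control replicate 5 or FO replicate 4). None of these passed. Families called on the share of all reads, 1 of 3, became 2 with permutation within batch (19 of 31 families in all, against 15 in the main test), without both samples (19 of 31) and in batch E53B alone (15 of 31), 0 in batch E56A alone (0 of 31), and 1 to 2 with 1 sample left out. Those called on the log2 ratio to Muribaculaceae, 2 of 3, became 0 in batch E56A alone, as did the 4 and 6 of 7 species entries called on these scales. Genera called between the batches, 2 of 3, became 0 scaled to all reads, 1 with DESeq2, and 0 to 2 with 1 sample left out. The cause of these changes was not tested. Rare entries are limited by depth, with 0 counts in several samples.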
